A study of Mus musculus with 74 samples.

Results

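Binding of PPARα was compared between livers of *Gps2* LKO mice and of their WT controls at 102519 chromatin sites, which are all rows of the table of tags counted at PPARα peaks in these livers, taken with no choice by value. The table covers 6 libraries, 3 WT and 3 LKO, of the 74 libraries of the study, which set out to learn what the corepressor subunit GPS2 does in hepatocytes. Both groups were C57BL/6 mice of 8 to 12 weeks on chow diet. LKO mice carried floxed *Gps2* alleles and Alb-Cre, in which the albumin promoter drives the recombinase in hepatocytes, so other liver cells keep the gene. WT mice were *Gps2* flox/flox animals of the same breeding without Cre. Chromatin was fixed with disuccinimidyl glutarate and then formaldehyde, and material of several ChIPs was pooled for a library. How many animals stand behind a library is not given in the sources used here.

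PPARα is the nuclear receptor that switches liver to the burning of fatty acids in fasting. It binds DNA as a heterodimer with RXR, mostly at a pair of AGGTCA half-sites one base apart (a DR1 element), and when no ligand is bound it recruits corepressor complexes that hold NCOR, SMRT, HDAC3 and GPS2. Its best known liver targets encode enzymes of omega-hydroxylation, mitochondrial and peroxisomal β-oxidation and ketogenesis, and the fasting hormone FGF21.

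The following sequences are shown because they carry the 3 patterns described below, and they were chosen after their values were seen. All are on the + strand of mm9, written 5′ to 3′. The first is the whole peak with the largest gain among peaks of high tag number, at chr5:122449045-122449237 in an intron of *Cux2*. Capitals mark its AGGTCA half-sites, which start at positions 121 and 148 of the site.

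Cux2 site: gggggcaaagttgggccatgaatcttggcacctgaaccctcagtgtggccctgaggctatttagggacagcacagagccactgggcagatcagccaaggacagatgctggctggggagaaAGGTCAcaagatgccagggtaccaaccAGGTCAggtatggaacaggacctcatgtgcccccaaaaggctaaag

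Stretches of 2 peaks near PPARα target genes and 1 peak near *Mfsd2a* show the DR1 element in capitals, read on either strand, with 1 mismatch at *Fgf21* and 2 mismatches at the other sites. They lie at chr7:52866131-52866177, chr17:33916218-33916278 and chr4:122643203-122643263.

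Fgf21 site: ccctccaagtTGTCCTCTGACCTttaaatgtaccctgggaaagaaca
Angptl4 site: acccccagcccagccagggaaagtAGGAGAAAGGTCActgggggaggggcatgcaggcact
Mfsd2a site: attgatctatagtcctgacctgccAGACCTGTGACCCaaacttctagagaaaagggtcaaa

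Stretches of 4 peaks that lost tags show in capitals the inverted repeat TTCNNNGAA, the form of element that STAT5 and BCL6 are known to bind. They lie at chr11:93996269-93996329, chr13:75504651-75504711, chr11:58012987-58013047 and chr15:3220081-3220141.

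Tob1 site: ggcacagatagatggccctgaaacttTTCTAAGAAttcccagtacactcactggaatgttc
Pcsk1 site: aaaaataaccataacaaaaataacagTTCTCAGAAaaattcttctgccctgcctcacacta
Igtp site: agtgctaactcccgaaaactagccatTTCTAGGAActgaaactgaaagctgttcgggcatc
Selenop site: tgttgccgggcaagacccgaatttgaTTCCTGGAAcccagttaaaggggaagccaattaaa

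The WT libraries held 7.90, 10.5 and 8.87 M tags (M, 1000000) and the LKO libraries 8.70, 10.6 and 17.1 M. Polyadenylated RNA of 4 WT and 4 LKO livers was used to check the labels and to set gene expression beside binding. *Gps2* RNA had 265, 266, 287 and 237 reads in WT and 170, 194, 148 and 157 reads in LKO, so that no LKO library reached the WT range. The fall was 0.54 on the log2 scale (SE 0.112, adjusted p = 0.0021, edgeR's quasi-likelihood test). *Ppara* RNA itself was 319.5, 347, 349 and 325 CPM (reads per 1 M reads) in WT and 220, 349, 237 and 217 CPM in LKO, a log2 fold change of −0.39 (SE 0.123, adjusted p = 0.0205), and 1 LKO library lay in the WT range. *Alb*, which marks hepatocytes, was abundant in all 8 libraries, at 81895 to 85836 CPM in WT and 116041 to 136990 CPM in LKO. Y-linked transcripts were read in all 8, with 1238 to 1486 reads of *Ddx3y* in WT and 1016 to 1771 in LKO.

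The share of PPARα tags inside peaks was higher in each LKO library than in each WT library. Of all tags, the share in the 102519 peaks was 19.2%, 21.9% and 19.8% in WT libraries and 32.1%, 30.3% and 28.9% in LKO libraries. WT livers averaged 20.3% ± 1.43 (SD, n = 3) and LKO livers 30.4% ± 1.64 (SD, n = 3), a ratio of 1.50, with an exact permutation p of 0.1 (two-sided), which is the smallest that 3 against 3 libraries can give. With the WT libraries counted as 1 sample, as explained below, the exact p was 0.25, again the smallest possible. The peaks were drawn in part from the LKO libraries themselves. The deposited peak lists held 47353, 61659 and 51934 peaks in WT and 68891, 72003 and 79777 in LKO, 64687 of the table's peaks appeared in lists of both groups, 30178 in LKO lists alone and 7654 in WT lists alone. The part of this choice of peaks in the higher LKO share was not tested.

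Once each was scaled to its own tags in peaks, the WT libraries differed from each other by about sampling noise over all peaks. For each pair of libraries a chi-square of the tags per peak was divided by its degrees of freedom, so that 1 is the value of counting noise alone. Expected tags followed each library's own total in peaks, so this value cannot see differences in the share of tags in peaks. Those shares did differ beyond counting noise, with 95% binomial intervals of 19.20% to 19.25%, 21.92% to 21.97% and 19.78% to 19.83% in WT libraries. The 3 WT pairs gave 0.99 to 1.01, and over peaks with a mean of at least 20 tags they gave 0.88 to 0.89, below counting noise. By level, the value for the group was 1.11 at the 25268 peaks with a mean below 5 tags and nearly as high at the 26104 peaks of 5 to 10 tags, both above counting noise, and it was 0.97 at 10 to 20 tags and 0.65 at over 100 tags. The 3 LKO pairs gave 1.41 to 1.72. WT livers of the *Ncor* line, with the same antibody, gave 1.51 to 1.57, the pair of WT libraries of the *Ppara* line 1.27, and NCOR ChIP in *Gps2* WT livers 1.32 to 1.51. The 3 *Gps2* WT libraries therefore entered all tests as the sum of their tags, that is, as 1 sample, and p-values below rest on the spread among the 3 LKO libraries, with the WT sample assumed to vary like them. Peak by peak, among 41209 peaks with a mean of at least 20 tags, WT libraries differed from each other at 2 peaks and LKO libraries at 1163 peaks (2.82%) at an adjusted p below 0.05 (chi-square). Without adjustment, 1509 peaks (3.66%) passed in WT and 6825 (16.6%) in LKO.

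**Figure D1:**
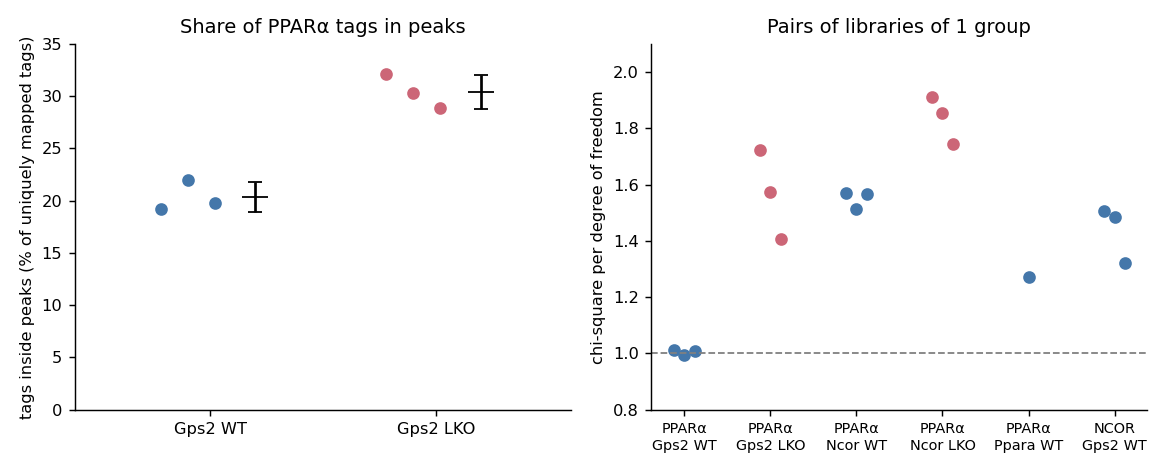
Left, share of tags in PPARα peaks (percent of all tags) in each of the 3 WT and 3 LKO libraries, with mean and SD in black. Right, chi-square per degree of freedom of tag counts between pairs of libraries of a group, where 1 is sampling noise. The WT shares lie between 19.2% and 21.9%, below the LKO shares of 28.9% to 32.1%, and the *Gps2* WT pairs sit at 0.99 to 1.01, under the other groups drawn.

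The peaks at which WT libraries did differ lie in exons of *Ppara* itself, and they stand apart from the rest. Exon 7 of *Ppara* (chr15:85628243-85628496) had 86, 45 and 13 tags in the WT libraries and 9, 4 and 13 in the LKO libraries. Exon 4 (chr15:85617546-85617703) had 57, 43 and 15 tags in WT and 9, 7 and 25 in LKO. In both, WT library 1 held the most tags and the lowest WT library lay at or below the highest LKO library. Exons 3 and 6 had 43, 32 and 9 tags against 0, 2 and 6, and 31, 21 and 10 tags against 3, 1 and 7, again most in WT library 1, with all WT counts above the LKO counts. In the fit described next, the log2 fold changes of exons 3, 4, 6 and 7 were −4.36, −2.51, −3.48 and −3.47 (edgeR adjusted p of 3.3e-18, 1.8e-11, 3.1e-10 and 9.3e-22), while exon 8 had 1, 3 and 3 tags against 4, 8 and 13 and did not pass. At exon 7, PPARα ChIP of the *Ncor* line gave 4.94, 214 and 25.2 tags per 10 M in WT livers, PPARα ChIP in the *Ppara* KO gave 5.49 and 35.9, and NCOR ChIP in *Gps2* WT livers gave 38.9, 2.19 and 8.12. The signal thus varied between single libraries of several lines, the receptor's knockout among them. What these exon tags are was not tested, and the 4 exon peaks are not read as receptor binding here.

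For each peak, LKO was compared with WT by edgeR's quasi-likelihood test after TMM scaling, which sets the typical peak to no change, so that a call is a gain or loss relative to the overall rise. With an adjusted p below 0.05, 553 peaks gained PPARα (0.539% of 102519) and 445 lost it (0.434%), together 0.973%, and 500 and 322 of these changed by at least 2-fold. 11164 peaks passed an unadjusted p of 0.05. The median log2 fold change was 1.52 among gained and −1.28 among lost peaks, against 0.017 over all peaks. 29 gained peaks had at most 3 tags in the WT libraries together, and the medians stayed the same with such peaks set at the fold that 3 tags allow. Scaled to the total tags of each library instead, the median over all peaks was 0.62, all LKO values lay above all WT values at 46.7% of peaks, 22086 peaks were gained and 151 lost, and the gained share of all calls moved from 55.4% to 99.3%. All 553 gained peaks were called under both scalings, but 145 of the 445 lost peaks were. Losses below are therefore losses relative to the shift of the other peaks. DESeq2 on the same tags called 15 gains and 7 losses. The counts also turned on single libraries. Without LKO library 3, the deepest, 85 gains and 71 losses were left. Without LKO library 1 there were 1050 and 939, and without WT library 2 there were 284 and 291.

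**Figure D2:**
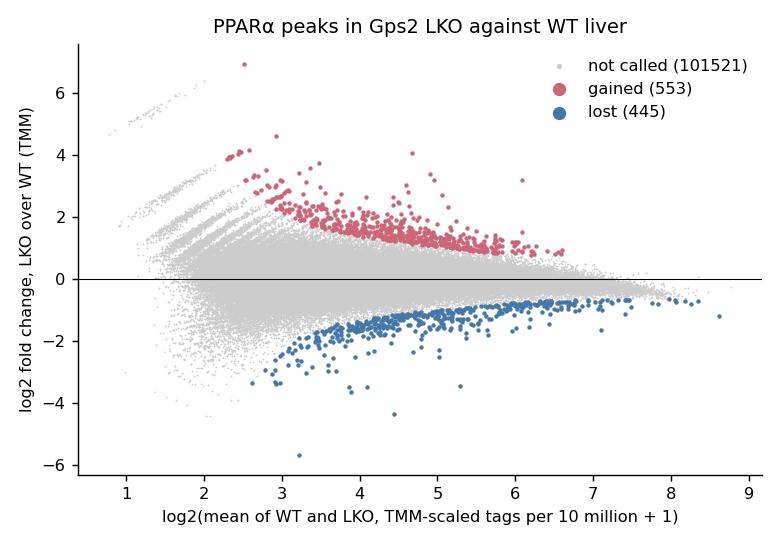
Log2 fold change of PPARα tags, LKO over WT after TMM scaling, against the log2 of the mean of WT and LKO in TMM-scaled tags per 10 M, for all 102519 peaks, with the 553 gained and 445 lost peaks in colour. The cloud bends below 0 at peaks with many tags, where the 1000 strongest have a median of −0.33.

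The overall rise was smaller at the strongest sites. Peaks with a mean of 10 to 20 tags had a median log2 fold change of 0.028 under TMM scaling, peaks with at least 100 tags −0.19, and the 1000 peaks with the most tags −0.33. In 65.2% of those 1000 peaks all 3 LKO values lay below all 3 WT values, against 10.7% over all peaks. Under scaling to total tags the same 1000 peaks had a median of 0.29, below the 0.62 of all peaks. With a curve fitted to this trend (loess), 371 gains and 270 losses were called.

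PPARα target genes sit in this range of strong peaks. For each gene on a list of known PPARα targets (8 lists, from fatty acid uptake to lipid droplets), the strongest peak within 20 kb of the transcription start was taken, which gave 61 sites, 51 of them also in the deposited PPARα peak lists of the *Ppara* line's WT livers. None was called as gained and 1 as lost, beside 0.327% gained and 0.448% lost among all 58665 peaks within 20 kb of a start. Their median log2 fold change was −0.28 under TMM scaling and 0.33 under total tags, under which 3 were gained, and −0.047 with the loess curve. In 32 of the 61 sites all LKO values lay below WT after TMM scaling, against 40.1% of peaks with at least 100 tags. RNA of 27 of the 61 genes was higher in LKO (10 of them at least 2-fold) and of 13 lower, beside 23.4% and 21.4% of the 12220 genes tested.

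Target genes with large RNA rises had no gain of PPARα called at their sites under TMM scaling. Positions below are in bp from the nearest transcription start, minus for upstream. Binding values are TMM-scaled tags per 10 M, WT libraries first. *Cyp4a14*, a fatty acid omega-hydroxylase, rose in RNA from 4.18 ± 0.736 to 120 ± 8.82 CPM (SD, n = 4 each, log2 fold change 4.85). Its site at −1551 had 138, 107 and 141 against 124, 119 and 114, ranges that overlap, with a log2 fold change of −0.079 (SE 0.199, adjusted p = 0.94). *Fgf21* RNA rose from 0.778 ± 0.231 to 15.5 ± 2.20 CPM (log2 fold change 4.30). Its strongest site, at +4579, which holds the DR1 printed above, had 69.0, 66.0 and 68.9 against 46.2, 50.03 and 52.8. All LKO values were lower there, but the log2 fold change of −0.43 (SE 0.223) did not pass (adjusted p = 0.48). All 10 peaks assigned to *Fgf21*, 4 to *Cyp4a14* and 6 to *Pdk4* within 20 kb were uncalled under TMM scaling. Scaled to total tags, most peaks of *Fgf21* and some of *Cyp4a14* and *Pdk4* were gained, beside 22086 of all 102519 peaks. Among them were those at +5751 and −80 (the promoter) of *Fgf21*, with log2 fold changes of 1.19 and 0.87. Those at −7883 of *Cyp4a14* and +10998 of *Pdk4* were gained as well, with 1.33 and 0.92. The strongest sites, at +4579, −1551 and −2693 in the same order, had 0.17, 0.53 and 0.49 and were not called.

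*Acot3*, a peroxisomal acyl-CoA thioesterase, rose in RNA from 2.91 ± 0.737 to 46.1 ± 2.84 CPM (log2 fold change 3.98). Its site at +630 had 90.9, 89.8 and 100.4 against 99.5, 97.0 and 73.1, a log2 fold change of −0.071 (adjusted p = 0.95). The Acot genes, like the Cyp4a genes, lie as near-identical copies side by side, so reads and tags could be split between copies. *Pdk4*, the kinase that shuts pyruvate dehydrogenase in fasting, rose in RNA by 1.17 (log2), and its site at −2693 had 197, 168 and 198 against 192, 165 and 153 (log2 fold change −0.12, adjusted p = 0.89). WT and LKO ranges of *Pdk4* overlap. *G0s2*, an inhibitor of lipolysis, and *Abcd2*, a peroxisomal transporter, rose in RNA by 1.90 and 1.61 (log2), with log2 fold changes of −0.35 and −0.33 at their sites, neither called.

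The peroxisomal list had the lowest sites. *Ehhadh*, an enzyme of peroxisomal β-oxidation, had 318, 236 and 255 in WT against 202, 206 and 164 in LKO. *Acaa1b*, a peroxisomal thiolase, had 322, 273 and 304 against 251, 218 and 164. All LKO values of both sites were below WT, with log2 fold changes of −0.47 and −0.49, neither past the test. *Pex11a*, a factor of peroxisome division, was the one target site that passed. It had 40.4, 45.4 and 54.5 against 21.3, 13.9 and 22.8 at +2656, a log2 fold change of −1.25 (SE 0.285, adjusted p = 0.00412), and its RNA fell from 27.2 ± 1.75 to 17.4 ± 3.39 CPM. Over the 10 peroxisomal sites the median was −0.40 and in 9 all LKO values were below WT. Of the 60 peaks near these genes 1 was lost and none gained, beside the 0.448% and 0.327% of all peaks within 20 kb.

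The other target groups held no called peak apart from 1 loss near *Slc27a2*. The 14 genes of mitochondrial β-oxidation had 46 peaks with a median log2 fold change of −0.16, and *Cpt1a*, which moves fatty acids into mitochondria, had −0.35 at its strongest site. The 6 omega-hydroxylases had 20 peaks (median −0.12), the 3 ketogenic genes 20 peaks (median −0.16), the 7 genes of fuel switch and hormones 39 peaks (median −0.083), the 7 lipid droplet genes 36 peaks (median −0.19) and the 8 genes of fatty acid uptake 64 peaks (median −0.061). The thioesterases were higher, at 0.17 over 24 peaks. Among all peaks within 20 kb the median was −0.053. *Slc27a2*, a fatty acid transporter, lost tags at −6732, with 47.1, 44.3 and 44.5 in WT against 35.5, 13.1 and 7.27 in LKO (log2 fold change −1.41, adjusted p = 0.00102). Near the 9 genes of the corepressor complex and its receptors, 89 peaks had a median of −0.091 and none was called, beside the same shares.

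Gained peaks lay far from promoters and had less PPARα in WT livers than all peaks. They were called from these same tags, so a low WT value follows in part from the call. Gained peaks had a median of 10.2 TMM-scaled tags per 10 M in WT and 30.0 in LKO, against 13.2 and 13.3 over all peaks. Of the gained peaks 2.35% lay within 1 kb of a transcription start, against 19.5% of all peaks, and 65.3% lay over 20 kb away, against 42.8%. Of the 553 gained peaks, 318 were in a *Gps2* WT list, and the others entered through LKO lists alone. Their share in WT lists thus follows in part from the call as well. In the *Ppara* line, 19 of the 553 (3.44%) were in the WT PPARα lists, against 13.0% of all peaks. None was in the KO lists, which held 113 of all 102519 peaks. At the 140 gained peaks that overlap the *Ppara* line's table, the KO had fewer tags than its WT, with a median log2 ratio of −0.95, against −1.17 at the 37888 overlapping peaks of all. The KO was higher at 7.86% of these gained peaks and at 8.11% of all overlapping peaks, so fewer KO tags were no trait of gained peaks. Their medians were low, 2.59 tags per 10 M in WT and 1.05 in KO. Peak lists of that line held 8975 and 11274 peaks in WT and 131 and 92 in KO. The part of this choice of peaks in the lower KO tags was not tested.

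The *Cux2* locus held the largest group of gained peaks. *Cux2* encodes a homeodomain repressor that female mouse liver expresses and male liver hardly does. Its site at +48693, printed above, had 10, 12 and 7 tags in WT and 148, 152 and 232 in LKO, which is 16.8, 13.0 and 10.0 against 131, 117 and 112 after scaling. No WT value came near an LKO value. The log2 fold change was 3.19 (SE 0.287, adjusted p = 8.94e-24), and it stayed called in all 19 settings that could be fitted, between 2.84 and 3.80. Of 23 peaks assigned to *Cux2*, between −10469 and +99398, 10 were gained and none lost, beside 0.539% and 0.434% of all peaks. The median of the 23 was 1.31. The peaks at +21389, +27388 and +28330, which were strong in WT, had log2 fold changes of −0.15, −0.32 and 0.078.

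Other ChIPs also had higher values in LKO at the same *Cux2* site. H3K27ac, a mark of active enhancers and promoters, had 4.40 and 2.72 tags per 10 M in WT and 25.2 and 41.8 in LKO in the region that covers the site. NCOR had 4.07, 2.19 and 1.16 in WT and 38.5, 51.9 and 19.5 in LKO. The ranges did not overlap in either. *Cux2* RNA had 6, 2, 4 and 10 reads in WT and 193, 378, 255 and 139 in LKO (log2 fold change 5.49, SE 0.274, adjusted p = 3.5e-09).

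**Figure D3:**
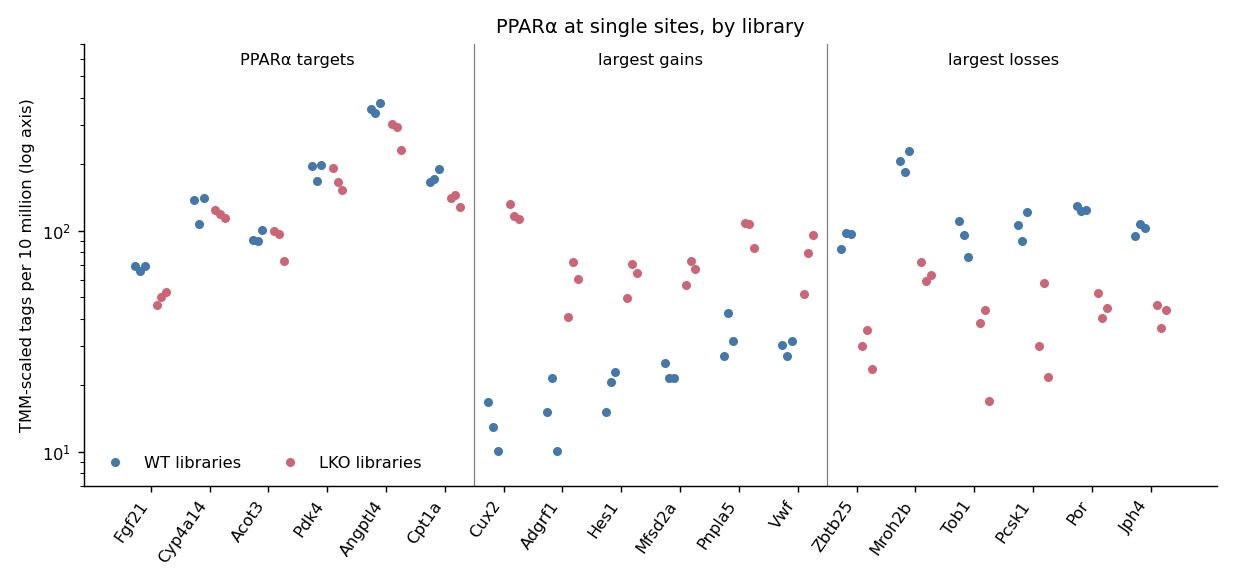
TMM-scaled PPARα tags per 10 M (log axis) in the 3 WT and 3 LKO libraries (points) at 6 target sites and at the 6 largest gains and 6 largest losses among peaks of high tag number. WT and LKO points overlap at *Cyp4a14* and *Pdk4*, and at *Cux2* the LKO points lie at 112 to 131 and the WT points at 10.0 to 16.8.

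The other large gains at peaks of at least 50 tags on average, with all LKO values above WT, were smaller. 92 gained peaks met these terms. All LKO values lay above WT at 10.5% of all peaks, at 11.3% of peaks with 50 to 100 tags and at 3.0% of those with at least 100. Gained peaks were called on these same tags, so their separation follows from the call and is no finding. The site near *Pnpla5*, a lipase gene, at −10477 had 26.9, 42.2 and 31.6 in WT against 108, 107 and 83.8 in LKO (log2 fold change 1.51, SE 0.238, adjusted p = 7.87e-07). *Pnpla5* RNA rose from 0.287 ± 0.0467 to 2.15 ± 0.314 CPM. Near *Mfsd2a*, which encodes a transporter of lysophospholipids, the site at −4802 had 25.3, 21.6 and 21.5 against 56.8, 73.1 and 66.8 (log2 fold change 1.55, adjusted p = 1.35e-05), its RNA rose from 48.3 ± 2.22 to 250 ± 17.1 CPM, and H3K27ac there was 21.3 in WT and 61.8 in LKO. *Adgrf1*, *Hes1* and *Vwf*, the nearest genes of the remaining sites, had log2 fold changes of 1.85, 1.65 and 1.41 at −12414, +85848 and +22135. RNA of *Hes1* rose by 1.58 (log2, edgeR adjusted p = 9.7e-06). RNA of *Adgrf1* and *Vwf* did not pass, with 0.15 and 0.013 (adjusted p = 0.32 and 0.95). H3K27ac was 10.1 in WT and 8.87 in LKO at the *Adgrf1* site, and 77.1 and 99.1 at that of *Vwf*. The largest *Cux2* gain and the sites of *Adgrf1* and *Pnpla5* passed in all 19 settings in which they were fitted. Those of *Hes1*, *Mfsd2a* and *Vwf* failed with DESeq2 and with at least 1 of the WT libraries alone as the WT sample, and that of *Vwf* also without LKO library 3.

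Further gains lay near other genes (chosen after their values were seen). Near *Tmeff2*, which encodes a transmembrane protein, 4 of 21 assigned peaks were gained, beside 0.539% of all peaks. The one at +1533 had 2, 3 and 1 tags in WT and 51, 69 and 85 in LKO (log2 fold change 4.06, SE 0.451, adjusted p = 5.8e-15), H3K27ac there was 9.96 in WT and 120 in LKO, and *Tmeff2* RNA went from 0.538 ± 0.304 to 36.5 ± 1.78 CPM. Near *Apoa4*, an apolipoprotein gene whose RNA rose from 228 ± 7.31 to 4468 ± 535 CPM, the site at −1832 had 37.0, 42.2 and 35.9 against 87.9, 77.7 and 95.9 (log2 fold change 1.18, adjusted p = 3.3e-04). *Akr1d1*, the 5β-reductase of bile acid synthesis, had 32 assigned peaks, with 6 gained and 1 lost within about 151 kb. *Fam19a2*, *Psapl1* and *Frmd4a* had 6 of 18, 6 of 15 and 5 of 27 assigned peaks gained, to be read beside the same share of all peaks.

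Among gene lists outside the PPARα targets, xenobiotic cytochrome P450 genes had the most gains, 5 of 65 peaks, with none lost and a median log2 fold change of 0.54, beside 0.327% gained, 0.448% lost and a median of −0.053 among all peaks within 20 kb of a start. These were near *Cyp2a4*, *Cyp2b10* and *Cyp2c29*. At −3441 of *Cyp2a4*, which female liver expresses more than male, values were 43.8, 28.1 and 27.3 in WT against 89.7, 81.6 and 63.9 in LKO (log2 fold change 1.27, adjusted p = 2.1e-04), and its RNA rose from 3.29 ± 1.30 to 1199 ± 112 CPM. In *Cyp2c40* (chosen after its values were seen), the site at +1008 had 11.8, 3.25 and 2.87 against 41.7, 36.9 and 26.6 (log2 fold change 2.65), beside an RNA rise of 4.28 (log2). The Cyp2a, Cyp2b and Cyp2c genes are families of near-identical copies, so tags and reads could be shared between them. Of 73 peaks near 11 sex-biased liver genes, 3 were gained, *Cux2* among their nearest genes, and 2 lost (near *Cyp7b1* and *Bcl6*), with a median of −0.12, to be read beside the same shares. Near 15 hepatocyte identity genes, 128 peaks had a median of −0.16, with 2 gained (near *Alb*, the serum albumin gene, and *Tat*) and 2 lost (near *Tat* and *Foxa1*). At −10744 of *Alb* values rose from 55.6, 69.2 and 70.3 to 138, 135 and 108 (log2 fold change 0.94, adjusted p = 0.0049). No peak near the cholesterol genes was called, and among the clock genes the site at −11948 of *Cry2*, a repressor of the clock, fell by 0.68 (log2, adjusted p = 0.0409).

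Markers of other liver cells carried few peaks. Of 7 Kupffer cell genes 1 had a peak, of 5 endothelial genes 4, of 5 stellate cell genes 4, of 4 cholangiocyte genes 2 and of 4 lymphocyte genes none, and no peak of theirs was called. Their summed tags per 10 M, scaled to total tags, were 41.8 to 69.3 in WT against 126 to 174 in LKO for Kupffer cells (3 peaks near *Csf1r*), 200 to 232 against 378 to 395 for endothelium, 30.4 to 37.0 against 36.0 to 55.1 for stellate cells and 32.9 to 50.3 against 63.2 to 75.1 for cholangiocytes. On this scale the median log2 fold change over all peaks was 0.62, and that of the marker peaks was 1.46, 0.76, 0.70 and 1.28 in the same order. After TMM scaling the medians were 0.85, 0.16, 0.11 and 0.70. In bulk liver, more cells of a type and more signal per cell cannot be told apart, and the part of such cells in the gains was not tested.

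H3K27ac and NCOR, measured in libraries that were not used to call the peaks, were mostly higher in LKO at gained sites. H3K27ac covered 360 of the 553 gained peaks and was higher in LKO at 93.9% of them, against 60.8% at all covered peaks, with a median log2 ratio of 0.76 against 0.051. The median over these sites was 25.4 and 27.2 tags per 10 M in the WT libraries and 56.6 and 54.9 in the LKO libraries. No LKO value fell in the WT range. H3K27ac was counted over whole merged regions, with a median width of 2288 bp over all covered peaks, so neighbouring peaks can share a value. The 360 gained peaks lay in 330 such regions, of which 93.3% were higher in LKO when each was counted once. NCOR covered 408 gained peaks and was higher at 88.2% of them, against 46.4% of all, with a median log2 ratio of 0.57 against −0.028. Its medians per library were 6.78, 7.66 and 4.64 in WT and 11.3, 14.4 and 5.97 in LKO, ranges that overlap, and relative to all peaks of the same library they were 0.54, 0.64 and 0.62 in WT and 1.04, 1.04 and 0.85 in LKO, which do not. H3K4me3, a promoter mark, had a median log2 ratio of 0.18 at gained peaks and 0.014 at all. GPS2 itself was found at 35.4% of gained, 57.3% of lost and 42.2% of all peaks. In LKO of the *Ncor* line, PPARα was higher at 73.2% of the 448 gained peaks it covered, against 61.2% of all.

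**Figure D4:**
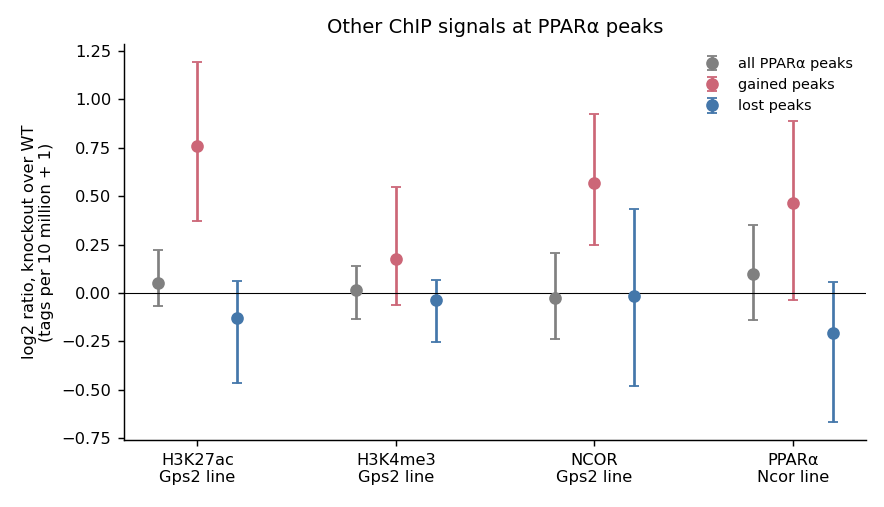
Log2 ratio of knockout over WT for H3K27ac, H3K4me3 and NCOR in the *Gps2* line and PPARα in the *Ncor* line, as median (points) and middle 50% of peaks (bars), at all PPARα peaks, gained peaks and lost peaks. At gained peaks H3K27ac lies at 0.76 and NCOR at 0.57, and at all peaks they lie at 0.051 and −0.028.

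RNA was set beside binding for genes near gained sites. Within 20 kb of gained peaks lay 104 genes with RNA, of which 57 (54.8%) were higher and 15 (14.4%) lower in LKO, and 33 were at least 2-fold higher. Within 20 kb of all peaks, 22.7% of 11153 genes were higher and 22.7% lower. Seen from the RNA, 46 of 1306 peaks (3.52%) near the 331 genes that rose 2-fold were gained, against 0.163% of peaks near genes that changed less. Of these 331 genes, 33 had a gained peak within 20 kb.

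Lost peaks had more PPARα in WT than all peaks, which, like their share in WT lists, follows in part from their call on these same tags. Their median was 41.4 TMM-scaled tags per 10 M in WT and 16.3 in LKO, 22.0% lay within 1 kb of a transcription start, and 41.1% (183 peaks) were in the PPARα lists of the *Ppara* line's WT livers, against 13.0% of all peaks. The lists of that line's KO livers, which lack the receptor, held 10 of the 445 lost peaks and 113 of all 102519 peaks. With at least 50 tags on average and all LKO values below WT there were 126 lost peaks, a separation that follows from their call on these tags. All LKO values lay below WT at 10.7% of all peaks, at 13.9% of peaks with 50 to 100 tags and at 40.1% of those with at least 100. The intergenic site at −61378 of *Mroh2b* had 207, 185 and 230 in WT against 71.9, 59.3 and 63.0 in LKO (log2 fold change −1.66, SE 0.19, adjusted p = 5.55e-14). There PPARα had 43.6 tags per 10 M in WT and 6.07 in KO of the *Ppara* line, and H3K27ac had 57.2 in WT and 27.3 in LKO. In the first intron of *Por*, which encodes the reductase that feeds electrons to P450 enzymes, the site at +1528 had 130, 122 and 123 against 52.4, 40.0 and 44.6 (log2 fold change −1.45, adjusted p = 5.63e-09). The promoter of *Zbtb25* had 82.5, 97.3 and 96.1 against 30.2, 35.4 and 23.7 (log2 fold change −1.67), with H3K27ac of 762 and 707. Sites near *Tob1*, *Pcsk1* and *Jph4* fell by 1.58, 1.56 and 1.28 (log2), and H3K27ac was 964 in WT and 263 in LKO over the 15605 bp region that holds the last. DESeq2 called none of these 3, while the sites of *Zbtb25*, *Mroh2b* and *Por* passed in all settings in which they were fitted, 19, 20 and 20. Acetylation did not fall at each of these 6 losses. From WT to LKO, H3K27ac went up at *Por* (4606 to 5236) and *Tob1* (2257 to 2379) and down at *Pcsk1* (37.2 to 16.5). RNA of *Por* and *Tob1* rose by 0.58 and 0.54 (log2, edgeR adjusted p = 6.5e-06 and 5.1e-06), and that of *Zbtb25* did not pass (0.30, adjusted p = 0.15).

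Of 195 genes with RNA within 20 kb of lost peaks, 70 (35.9%) were lower and 34 (17.4%) higher, beside 22.7% each near all peaks. The following were chosen after their values were seen. *Cyp7b1*, an oxysterol hydroxylase that male liver expresses more, fell in RNA from 503 ± 16.1 to 80.7 ± 5.64 CPM. Its site at −52838 had 26.9, 32.5 and 25.8 in WT against 10.7, 3.85 and 3.88 in LKO (log2 fold change −2.33, adjusted p = 3.5e-06), and H3K27ac had 229 in WT and 67.8 in LKO. The promoter of *Bcl6*, a repressor that male liver expresses more, had 33.7, 33.5 and 44.5 against 31.1, 10.0 and 11.6 (log2 fold change −1.16, adjusted p = 0.0256), and its RNA went from 86.8 ± 3.42 to 24.0 ± 2.75 CPM. Near *Mup21*, of a family of near-identical urinary protein genes, the site at −7688 fell by 1.06 (log2) and RNA by 4.35. Of the 7 peaks assigned to *Dpy19l3*, 4 intron peaks were lost by 2.37 to 3.37 (log2), beside 0.434% lost among all peaks. H3K27ac was 357 in WT and 60.2 in LKO over 3 of these 4.

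An inverted repeat was more common in the lost sites than in the others. In windows of 201 bp around peak centres, TTCNNNGAA, which reads the same on both strands, was found in 141 of 445 lost peaks (31.7%), in 5.97% of gained peaks, in 6.51% of all peaks and in 6.08% of windows moved by 10 kb. The same arms with 2 or 4 bases between them were in 6.07% and 6.07% of lost and in 5.11% and 4.62% of all peaks. Of peaks with the 3-base repeat 2.11% were lost, of those without it 0.317%. Among peaks with at least 50 tags, sorted by log2 fold change, the repeat was in 13.4% of the 1527 lowest peaks and in 4.26% of the 1527 highest. 12 motifs were searched in all, on both strands.

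The receptor's own element was found in 12.6% to 15.0% of peaks of each class. The DR1, a pair of AGGTCA with 1 base between them, was found with at most 2 mismatches in 15.0% of gained, 12.6% of lost and 13.3% of all peaks, in 26.2% of the 1000 strongest peaks and in 3.08% of moved windows. With at most 1 mismatch the shares were 2.89%, 2.70% and 3.22%. The single half-site AGGTCA, which lies within the DR1 as well, was in 41.2% of gained, 31.5% of lost and 31.8% of all peaks. Gained peaks held the FOXA element TGTTTAC in 8.68% and the C/EBP element TTGCNNAA in 19.0%, against 5.73% and 14.8% of all peaks. A match describes letters in a window, not a bound factor.

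PPARα and NCOR were read at lost peaks with and without the repeat. The 141 with it had medians of 43.8, 43.3 and 40.2 in WT against 16.9, 19.2 and 15.5 in LKO, and the 304 without it 39.6, 40.0 and 38.7 against 16.0, 14.6 and 15.3. NCOR was higher in LKO at 83.3% of the 102 covered peaks with the repeat, with a median log2 ratio of 0.49, and at 30.4% of the 207 without it, with −0.24. Relative to all peaks of the same library, the NCOR medians with the repeat were 0.91, 0.86 and 0.96 in WT and 0.87, 1.63 and 1.85 in LKO, so LKO library 1 lay in the WT range. Without the repeat they were 1.25, 1.18 and 1.23 in WT and 0.83, 0.89 and 1.31 in LKO, which overlap as well. H3K27ac had medians of −0.14 and −0.12. In the *Ncor* line PPARα was lower in LKO than in WT at 87.0% of those with the repeat (median −0.53) and at 61.3% of those without (−0.094).

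The lost sites were also read in each library of the 3 lines. Divided by the median of all peaks in the same library, the median of the 141 sites was 3.25, 3.33 and 3.11 in *Gps2* WT and 1.27, 1.47 and 1.14 in *Gps2* LKO. It was 2.27, 1.50 and 1.25 in WT libraries of the *Ncor* line, and 1.20 and 2.60 in those of the *Ppara* line. In the KO of the *Ppara* line both libraries were at 1.00. The LKO values of the *Ncor* line were 0.67, 1.35 and 0.93. At lost sites without the repeat the ratios were 2.94 to 3.08 in *Gps2* WT, 1.73, 1.59 and 1.38 in *Ncor* line WT and 1.20 and 1.60 in *Ppara* line WT. The lost sites were chosen in part for high *Gps2* WT tags, so the rank of these libraries is no finding. Since the *Gps2* WT libraries count as 1 sample, a state of that sample and the genotype cannot be told apart at any site, whether gained, lost or not called.

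**Figure D5:**
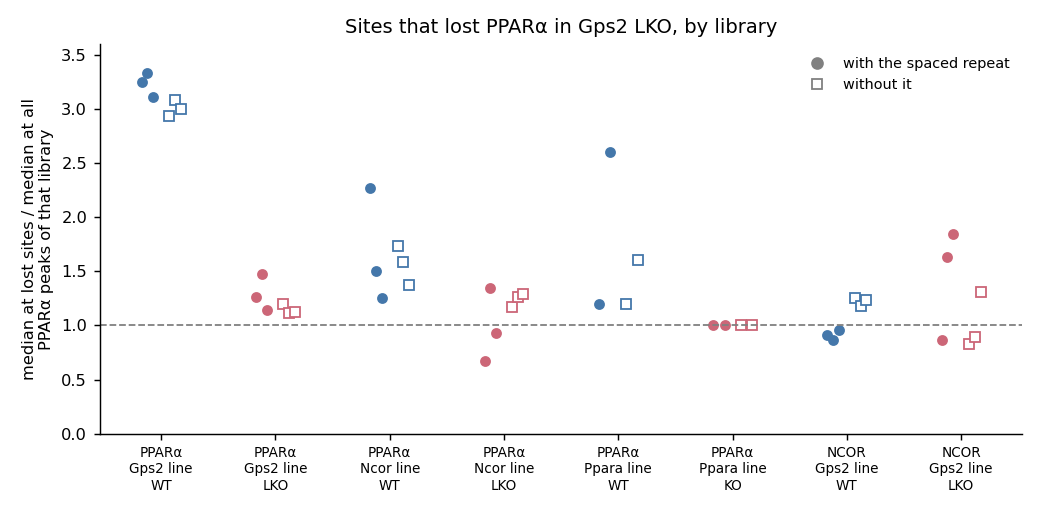
Median PPARα or NCOR signal at lost sites with the repeat (filled circles) and without it (open squares), divided by the median of all PPARα peaks in the same library, for each library of the 3 mouse lines. With the repeat, *Gps2* WT libraries lie at 3.11 to 3.33 and WT libraries of the other lines spread from 1.20 to 2.60.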

How the data were processed

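Per the submitters' processing notes, reads were aligned to mm9 with Bowtie2, and HOMER was used on the ChIP-seq libraries. The sources used here do not give their versions. The deposited ChIP-seq tables hold raw tag counts per peak, with peak annotation and the total tags of each library in the headers, and were not normalized by the authors. The deposited peak lists carry a constant score, and only their positions were used. The deposited RNA table holds read counts per gene, and its columns of the authors' own comparison (fold changes, p-values, calls) were not used.

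Scaled to their own tags in peaks, the 3 *Gps2* WT libraries varied by about sampling noise over all peaks (chi-square per degree of freedom near 1) and were summed to 1 sample. LKO was compared with WT with edgeR 4.0.16 (R 4.3.3) by TMM scaling and the quasi-likelihood test on all 102519 peaks with at least 1 tag, with Benjamini-Hochberg adjustment and a threshold of 0.05. RNA was tested in the same way on 12220 genes. All p-values in these fits are edgeR's, adjusted over all peaks or genes, and they measure only the spread between these libraries, which may be technical. Scaling to total tags, DESeq2 1.42.0, filters, a loess trend (limma 3.58.1), the replicate block and the leaving out of libraries were tried as alternatives. The scripts were tested on simulated data with known changes at peaks with a mean of at least 20 tags. The fit called 38% of 100 peaks with a true 2-fold change and 96% of 100 with a 4-fold change. A peak that was not called is thus not shown to be unchanged. Peaks were joined to other tables by an overlap of at least 1 bp with bedtools 2.31.1, and log2 ratios of other ChIPs used a pseudocount of 1 tag per 10 M (M, 1000000). Motifs were searched with Python 3.11.15 in the mm9 genome, in 201 bp around peak centres. Exact permutation tests were two-sided.

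Named were the strongest peak within 20000 bp of each gene on the lists, all such peaks of *Pdk4*, *Cyp4a14* and *Fgf21*, and the 6 largest called gains and losses with a mean of at least 50 tags and all LKO values outside the WT range. The comparison, the gene lists and these rules were chosen with earlier results of these data known. Counts of gene lists are to be read beside the shares called among all peaks within 20 kb of a start, and no set test was run. Results for some genes are not reported here.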

Additional observations from a re-analysis of the deposited data

Results flagged for a closer look

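Among 48 groups of 4 RNA libraries of named genes, 3 held a library set apart from the other 3 by Dixon's criterion, which flags about 1 in 20 groups by chance. *Acaa1b* RNA had 613 CPM in its lowest LKO library and 807 in the next. *G0s2* RNA had 60.6 CPM in its lowest LKO library and 82.2 in the next, and both low values belong to LKO library 2. *Tmeff2* RNA had 39.1 CPM in its highest LKO library and 35.8 in the next. In all 3 genes every LKO library lay above every WT library.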

How the results depend on the processing

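The share of tags in peaks kept its direction in every setting tried. The counts of called peaks moved with most settings. All values are gained and lost peaks, with those past 2-fold after them, against 553 and 445 (500 and 322 past 2-fold). Scaling to total tags gave 22086 and 151 (12788 and 108), and DESeq2 15 and 7 (15 and 7 past 2-fold). The 3 WT libraries taken as separate samples gave 1995 and 2388 (1269 and 835). The replicate block on these 3 against 3 libraries gave 2012 and 2554 (1207 and 826). Deviations of same-numbered libraries had correlations between −0.0089 and 0.0031, and those of other pairs between −0.0068 and 0.013. This cannot decide whether the numbers pair the libraries, since WT libraries deviated by about sampling noise alone. A loess trend gave 371 and 270 (284 and 169). Only peaks of *Ppara* WT and not KO livers gave 57 and 107 (7 and 30).

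Without single LKO libraries gains ranged from 85 to 1050 and losses from 71 to 939 (82 to 911 and 50 to 598 past 2-fold), lowest without LKO library 3 and highest without LKO library 1. Without single WT libraries they ranged from 284 to 405 and from 291 to 329 (280 gains and 208 losses past 2-fold without WT library 2). Chosen after seeing the data, WT libraries 1, 2 and 3 alone as the WT sample gave 60, 153 and 67 gains (60, 153 and 67 past 2-fold) and 100, 153 and 80 losses (88, 133 and 72). DESeq2 size factors, the filters on low counts and listed peaks, and the omission of satellite peaks stayed within 1.5 times. No called peak turned direction under these alternatives, except 1 lost peak with WT library 3 alone. The cause of these shifts was not tested.

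Over peaks of at least 20 tags the WT noise was 0.88. With an overlap of at least 0.5 of the peak, GPS2 had medians of −2.77 at gained and −3.42 at lost peaks. RNA polymerase II, with 1 library per group, then had 0.29 at 28 gained and 0.0755 at 57 lost peaks. With an overlap of at least 1 bp it had −0.026 at 47 gained, 0.092 at 85 lost and 0.081 at all covered peaks. It was higher in LKO at 48.9% of those 47 gained peaks, against 60.4% of all. The median peak held 8 to 28 tags per library.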
